A study of Mus musculus with 48 samples.

Results

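The 9 genes described here belong to the renin-angiotensin system, the hormone cascade whose effector peptide, angiotensin II (angII), was infused in this study. They were picked by symbol as the precursor, peptidases, receptors and receptor-associated proteins of the cascade, and all 9 of 9 were found among the 54752 genes of the expression matrix. Agt, Agtr1a, Agtr2, Agtrap, Mas1, Ace, Enpep and Atp6ap2 reached a level of 1 TPM (transcripts scaled to a common total per library) in no fewer than 3 of the 36 endothelial libraries and entered the comparisons between cell populations. Agtr1b did not and is given by its values only.

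In the cascade, renin cuts angiotensinogen (Agt) to angiotensin I, and angiotensin-converting enzyme (Ace) trims this to angII. AngII acts on G protein-coupled receptors. The type 1 receptor, which exists in mice as the paralogs Agtr1a and Agtr1b, raises vascular tone and drives hypertrophy and fibrosis of the heart, and the type 2 receptor (Agtr2) is generally described as opposing it. Aminopeptidase A (Enpep) removes the first residue of angII, and Mas1 is a receptor for a shorter angiotensin peptide. Agtrap binds the tail of the type 1 receptor and promotes its internalization. Atp6ap2 is the (pro)renin receptor, also an accessory subunit of the vacuolar proton pump that acidifies lysosomes.

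RNA-seq was analysed in 48 libraries of Prox1-eGFP mice, in which the endogenous Prox1 promoter drives eGFP through an inserted IRES-eGFP cassette. Lymphatic endothelial cells (LECs) were sorted as CD31-positive eGFP-positive and blood endothelial cells (BECs) as CD31-positive eGFP-negative cells, both negative for CD45.2. The 4 populations were heart LECs, diaphragm LECs, heart BECs and cardiomyocytes, and the cardiomyocytes were a low-speed pellet of the digested heart and were not sorted. Each population had 12 libraries, 4 from mice infused with bovine serum albumin (ctrl), 5 with angiotensin II in albumin (angII) and 3 with angiotensin II and VEGFCc156s, a VEGFR-3-selective lymphangiogenic protein (angII+VEGFC). All mice were of the C57BL/6 strain, males by the study's methods, carried the knock-in also as controls, and were infused for 5 to 6 weeks. The labels give ages of 8 to 16 months, where the study's methods state ages in weeks, so the unit is uncertain. The heart libraries of a mouse share its number, and 11 of the 12 diaphragm libraries came from mice that also gave heart libraries, 13 mice in all. The cardiomyocyte libraries were a sequencing batch of their own. Population and batch therefore cannot be told apart in any comparison of cardiomyocytes with endothelial cells.

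The sorted populations carried their defining markers. Prox1 ran from 97.6 to 315 TPM in the 24 LEC libraries and from 0.867 to 6.18 TPM in the heart BECs and cardiomyocytes, Flt1 from 353 to 637 TPM in heart BECs, and Myh6 from 1004 to 3914 TPM in cardiomyocytes. The cardiomyocyte libraries also held the smooth muscle transcript Acta2 at 473 to 1235 TPM, the fibroblast transcript Dcn at 1718 to 3182 TPM and the macrophage transcript Lyz2 at 353 to 1145 TPM. A level in them is therefore the level in a mixed pellet. The sorted libraries held transcripts of other cells too. The summed level of 8 fibroblast markers was 752 to 1794 TPM in heart LECs and 475 to 4169 TPM in heart BECs. That of 5 blood endothelial markers was 1223 to 7020 TPM in heart LECs. In bulk libraries such as these, more cells of a type and more RNA per cell cannot be told apart. TPM values keep no read count, so the depth is unknown. In its place, the genes detected at 1 TPM or above numbered 12924 to 25896 per library.

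**Figure D1:**
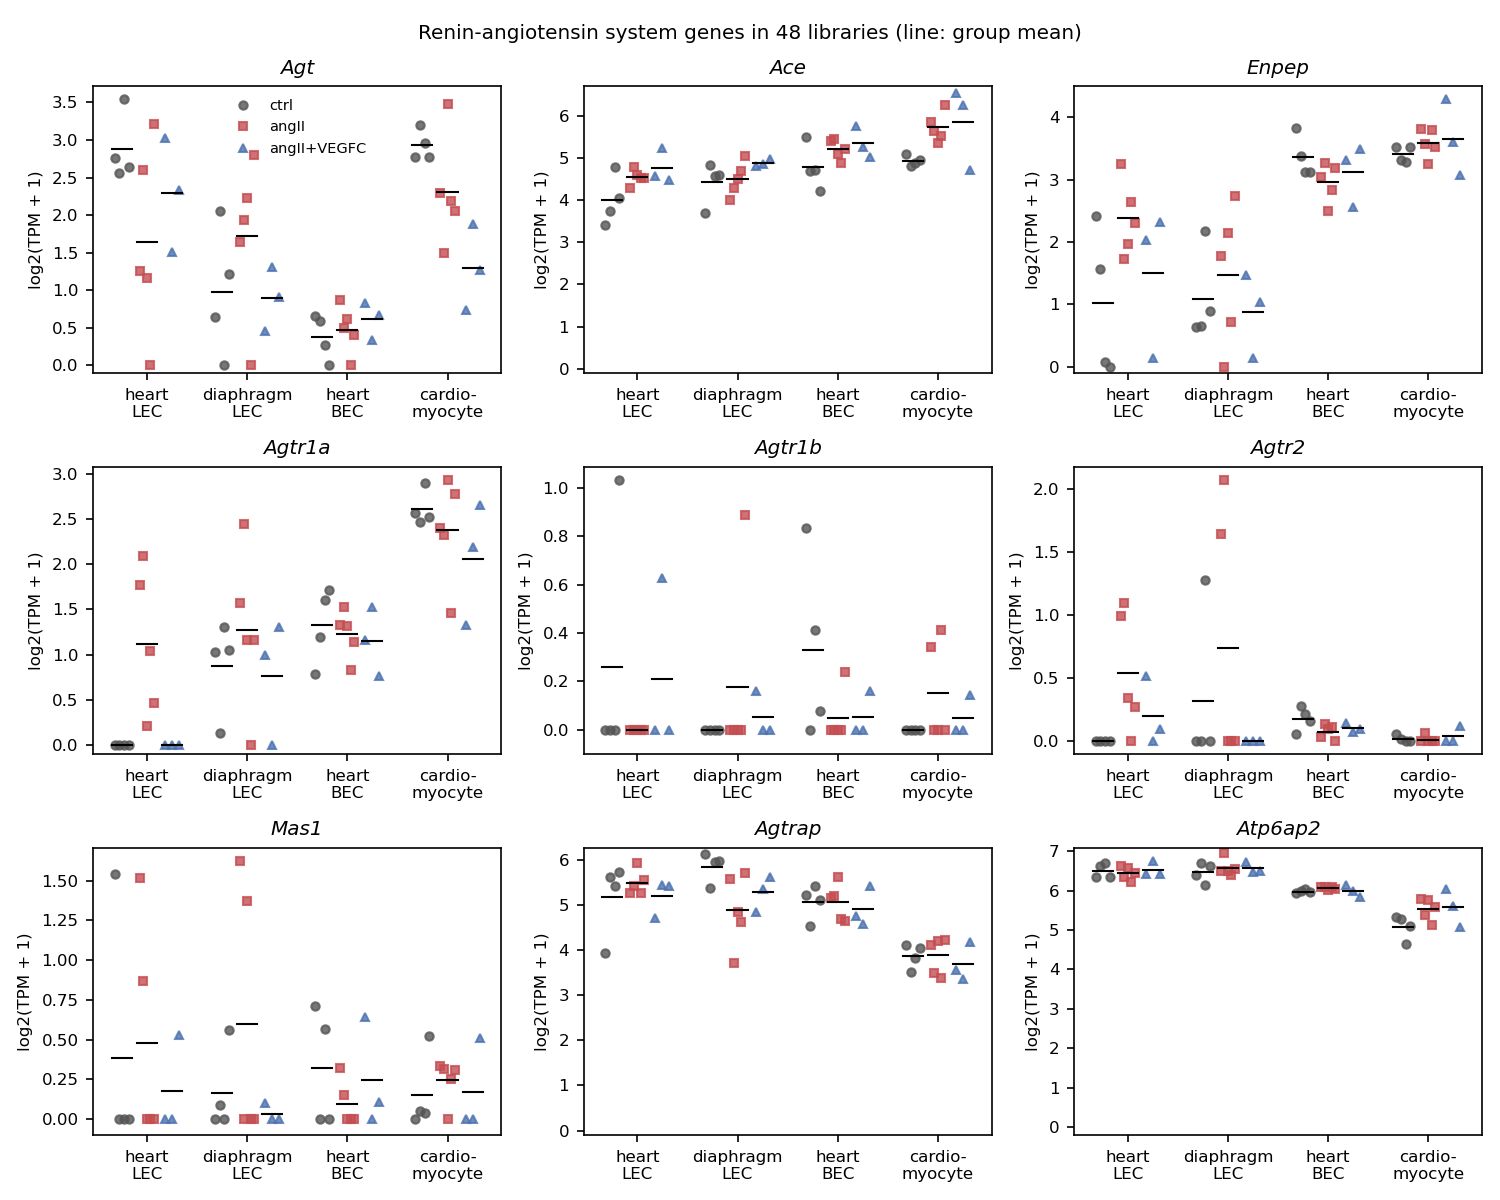
Each panel shows 1 gene as log2(TPM + 1) in the 48 libraries, with 1 symbol per library, the population on the x axis, the treatment by colour and shape, and a line at the mean of each group. Agtr1a is highest on average in cardiomyocytes (1.51 to 6.62 TPM), Atp6ap2 highest in both LEC populations, and Agtr1b, Agtr2 and Mas1 are listed at 0 in many libraries; the y axes differ between panels.

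Angiotensinogen, the only known precursor of the angiotensins, was low in every population and lowest in heart BECs. Heart LECs held Agt at 4.64 ± 3.16 TPM (SD, n = 12) and cardiomyocytes at 4.50 ± 2.89 TPM, against 1.87 ± 1.79 TPM in diaphragm LECs and 0.419 ± 0.271 TPM in heart BECs. In ctrl heart LECs the values were 5.78, 4.91, 10.6 and 5.21 TPM, whereas no heart BEC library exceeded 0.832 TPM. Of 12 mice, 11 had more Agt in heart LECs than in heart BECs, and the remaining mouse was listed at 0 in both. Heart LECs exceeded heart BECs by 1.78 ± 0.33 on the log2(TPM + 1) scale (difference ± SE, limma, adjusted p = 9.4e-05), and cardiomyocytes exceeded heart BECs by 1.69 ± 0.30 (limma, adjusted p = 8.08e-06). Heart LECs and cardiomyocytes, the neighbours at the top of the order, did not differ beyond their spread, with a difference of -0.10 and a 95% interval of -0.71 to 0.51 (limma, adjusted p = 0.79). The difference of diaphragm from heart LECs was -1.07 ± 0.33 on the log2 scale (SE, limma, adjusted p = 0.0567), and this passed the threshold once the mouse was a block in the fit (limma, adjusted p = 0.0255). Agt and the summed fibroblast markers had Pearson r = 0.423 within heart LECs, 0.176 within diaphragm LECs, 0.686 within heart BECs and -0.400 within cardiomyocytes. None passed the threshold (permutation, adjusted p from 0.167 to 0.680). Spearman rho was 0.622, 0.137, 0.602 and -0.371 in the same order (permutation, adjusted p from 0.248 to 0.766). Without the 2 libraries farthest from the median, r was 0.712, 0.207, 0.681 and -0.295. The part of fibroblast RNA in the Agt order was not tested.

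Among the 8 tested genes, 5 differed between heart LECs and heart BECs (limma, adjusted p under 0.05), 2 higher and 3 lower in LECs, where 17.6% of all 32754 genes tested did. With the 12 ctrl libraries of the endothelial populations alone, 3 of the 5 remained past the threshold, and Ace and Atp6ap2 did not. Diaphragm LECs differed from heart BECs in 3 genes, with a background of 16.6%, and from heart LECs in 0, with a background of 4.56% and 2 genes at an unadjusted p under 0.05. Quantile normalization moved the share of called genes that were higher in heart LECs than in heart BECs from 50.9% to 40.6%, and that higher in diaphragm than in heart LECs from 41.4% to 54.9%. Cardiomyocytes differed from heart BECs in 4 genes, 2 higher and 2 lower, where 42.1% of 33308 genes did. They differed from heart LECs in 5, 3 higher and 2 lower, where 58.6% did. With quantile normalization 4 and 5 members were called, against 9339 and 10840 of the 33308 genes. The 5 against heart LECs were the same genes, but the 4 against heart BECs were not. There Agt and Agtr1a stayed, Agtrap and Atp6ap2 were lost, and Ace and Enpep were called as higher in cardiomyocytes.

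**Figure D2:**
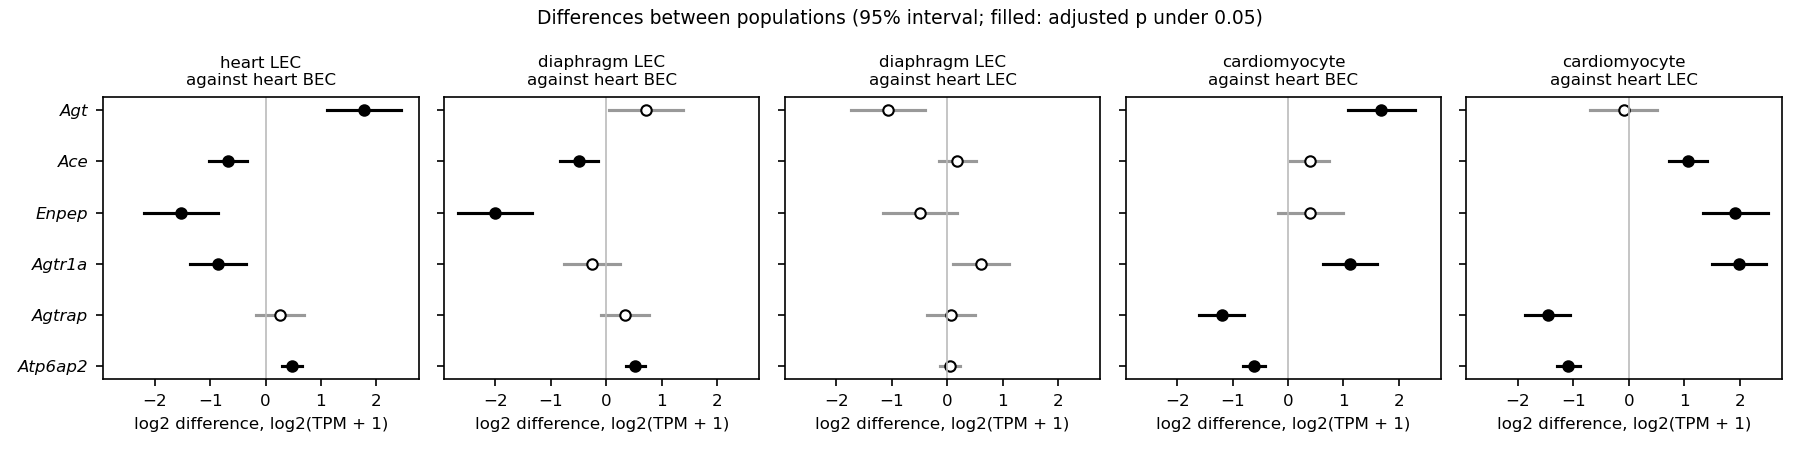
Each panel is 1 comparison of populations over all treatments, with the difference in log2(TPM + 1) of 6 genes on the x axis, 95% intervals as bars and filled symbols for an adjusted p under 0.05. Enpep and Ace lie to the left in both LEC populations against heart BECs, Atp6ap2 to the right, and Agtr1a to the right in both cardiomyocyte panels.

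The 2 peptidases were lower in LECs than in heart BECs. Ace, the enzyme that forms angII and breaks down bradykinin, was at 48.01 ± 22.3 TPM in cardiomyocytes (SD, n = 12), 34.5 ± 9.82 TPM in heart BECs, 23.5 ± 6.08 TPM in diaphragm LECs and 21.4 ± 7.09 TPM in heart LECs. It was lower in heart LECs than in heart BECs in 11 of 12 mice and lower than in cardiomyocytes in 12 of 12. The difference between heart LECs and heart BECs was -0.68 ± 0.16 (log2 scale, SE, limma, adjusted p = 0.00267), that between diaphragm LECs and heart BECs -0.49 ± 0.16 (limma, adjusted p = 0.0341). The latter was lost with the mouse as a block (limma, adjusted p = 0.07), and it was -0.91 in sequencing batch 1 and -0.15 in batch 2. Leaving out mouse 1, 3, 12, 14, 2 or 6 also ended the call, with adjusted p up to 0.176 (limma). The neighbours in the order, cardiomyocytes above heart BECs (limma, adjusted p = 0.066) and diaphragm above heart LECs (limma, adjusted p = 0.608), were not separated by the test. Cardiomyocytes were, however, above heart BECs in Ace with quantile normalization (1.19, limma, adjusted p = 4.65e-07), without mouse 1 (limma, adjusted p = 0.0246) and without mouse 8 (limma, adjusted p = 0.0115).

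Enpep, which degrades angII and is a known pericyte gene in several organs, followed a steeper order. Cardiomyocytes held it at 11.0 ± 2.91 TPM (SD, n = 12) and heart BECs at 8.08 ± 2.33 TPM, against 3.04 ± 2.46 TPM in heart LECs and 1.72 ± 1.73 TPM in diaphragm LECs. All 12 heart BEC libraries lay at 4.67 TPM or above, and all 12 diaphragm LEC libraries at 5.68 TPM or below, 1 of them listed at 0. Heart LECs were below heart BECs with a difference of -1.52 ± 0.33 (log2 scale, SE, limma, adjusted p = 0.000689) and diaphragm LECs with -2.005 ± 0.33 (limma, adjusted p = 1.15e-05). The difference kept its sign and size within batch 1 (-1.46 and -1.91) and batch 2 (-1.41 and -1.97). Cardiomyocytes and heart BECs were not separated (0.40, limma, adjusted p = 0.272), but with quantile normalization the difference in Enpep was 1.07 (limma, adjusted p = 0.000715). The LECs of the 2 organs were not separated either (limma, adjusted p = 0.468). Mural cell markers, 10 genes of pericytes and smooth muscle, had a summed level of 163 to 464 TPM in heart BECs, 46.8 to 904 TPM in heart LECs, 47.2 to 705 TPM in diaphragm LECs and 1024 to 2141 TPM in cardiomyocytes. Enpep and these markers had Pearson r = 0.415 within heart LECs, 0.443 within diaphragm LECs, 0.536 within heart BECs and -0.171 within cardiomyocytes. With summed fibroblast markers, r was -0.319, 0.729, 0.424 and 0.537 in the same order. None of these relations passed the threshold (permutation, adjusted p from 0.167 to 0.680). Without the 2 libraries farthest from the median, r with the mural markers was 0.205, 0.808, 0.388 and 0.0173 in that order. With the fibroblast markers it was -0.439, 0.418, -0.084 and 0.525. The part of the mural markers in the Enpep order across populations was not tested. Over all 48 libraries the genes whose log2(TPM + 1) followed Enpep most closely were Ndufa4l2 (Pearson r = 0.908), Rasl12 (r = 0.905) and Col15a1 (r = 0.878). This is a description across libraries that share mice and cell populations.

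Agtr1a encodes the receptor through which most actions of angII on the heart and vessels run. Its coding sequence lies in 1 exon on chromosome 13 (+ strand, GRCm38, 30336441 to 30382867 for the gene), and that of Agtr1b in 1 exon on chromosome 3 (- strand, 20314473 to 20367177). The 2 reading frames have the same length, 1077 bases without the stop codon, of which 99 differ (90.8% identity, longest identical run 66 bases). Reads that fall in an identical run can be divided between the 2 genes by the counting, so the levels of both are uncertain to that extent. The first 90 coding bases, where 8 bases differ, and coding bases 973 to 1062, the 90 with the most differences (20), are shown from the reference transcripts. Differing bases, by which a read in the coding sequence can be told apart, are in capitals. The parts of the transcripts outside the coding sequence were not compared.
Agtr1a, coding bases 1 to 90 (chr13:30380954-30381043, +): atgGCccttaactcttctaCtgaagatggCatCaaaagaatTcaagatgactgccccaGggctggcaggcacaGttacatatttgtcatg
Agtr1b, coding bases 1 to 90 (chr3:20316351-20316440, -): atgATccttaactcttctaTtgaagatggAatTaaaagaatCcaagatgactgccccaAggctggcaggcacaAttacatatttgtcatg
Agtr1a, coding bases 973 to 1062 (chr13:30381926-30382015, +): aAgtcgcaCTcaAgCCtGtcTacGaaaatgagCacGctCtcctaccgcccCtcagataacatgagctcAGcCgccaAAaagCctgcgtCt
Agtr1b, coding bases 973 to 1062 (chr3:20315379-20315468, -): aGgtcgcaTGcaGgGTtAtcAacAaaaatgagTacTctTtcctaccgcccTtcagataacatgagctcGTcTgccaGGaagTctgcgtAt

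Agtr1a was highest in cardiomyocytes and at or below 4.47 TPM in every endothelial library. The cardiomyocyte values were 4.94, 4.53, 6.43 and 4.74 TPM in ctrl, 4.28, 1.75, 4.00, 5.86 and 6.62 TPM in angII, and 1.51, 3.57 and 5.32 TPM in angII+VEGFC. All 12 mice had more Agtr1a in cardiomyocytes than in heart BECs and in heart LECs. The mean was 4.46 ± 1.61 TPM in cardiomyocytes (SD, n = 12), 1.42 ± 0.528 TPM in heart BECs, 1.26 ± 1.19 TPM in diaphragm LECs and 0.605 ± 1.10 TPM in heart LECs. Cardiomyocytes exceeded heart BECs by 1.12 ± 0.24 (log2 scale, SE, limma, adjusted p = 0.000155) and heart LECs by 1.98 ± 0.24 (limma, adjusted p = 2.78e-09). The cardiomyocyte libraries formed a sequencing batch of their own. Population and batch cannot be told apart in these 2 comparisons, nor in those of any other gene with cardiomyocytes. Fibroblast and mural markers were also highest there on average, at summed levels of 2497 to 6657 TPM and 1024 to 2141 TPM. Within the 12 cardiomyocyte libraries Agtr1a was not related to either at the threshold (Pearson r = -0.345 and 0.0984, Spearman rho = -0.406 and 0.259, permutation p from 0.193 to 0.762, adjusted over 24 relations from 0.462 to 0.795). Without the 2 libraries farthest from the median, r was -0.209 and 0.0298.

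Heart BECs listed Agtr1a in all 12 libraries, from 0.702 to 2.27 TPM. Heart LECs listed it at 0 in 7 of 12, and the difference between these populations was -0.86 ± 0.25 (log2 scale, SE, limma, adjusted p = 0.0116), -0.67 in batch 1 and -0.88 in batch 2. The heart LEC libraries of ctrl and angII+VEGFC were all at 0, while in angII mice the mean was 1.45 ± 1.34 TPM in heart LECs (SD, n = 5) and 1.38 ± 0.412 TPM in heart BECs. Diaphragm LECs lay between, with 10 of 12 libraries above 0. At the threshold they differed neither from heart BECs (-0.26, 95% interval -0.76 to 0.25, limma, adjusted p = 0.686) nor from heart LECs (0.61, 95% interval 0.10 to 1.11, limma, adjusted p = 0.182). With quantile normalization, diaphragm LECs exceeded heart LECs by 0.83 (limma, adjusted p = 0.0213). Kcnmb1, a potassium channel subunit of smooth muscle, was the gene most like Agtr1a over the 48 libraries (Pearson r = 0.817), followed by the unnamed gene model Gm48529 (r = 0.80) and Adcy5 (r = 0.791).

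The other receptor genes stayed near 0. Agtr1b was listed at 0 in 10 libraries each of heart and diaphragm LECs, 7 of heart BECs and 9 of cardiomyocytes, and its highest value was 1.05 TPM, in a ctrl heart LEC library. Agtr2 reached 3.20 TPM in 1 angII diaphragm LEC library and 1.13 TPM in 1 angII heart LEC library, and was at 0.214 TPM or below in all heart BEC and 0.0887 TPM or below in all cardiomyocyte libraries. Mas1 was highest in diaphragm LECs of an angII mouse at 2.08 TPM, was listed at 0 in 8 of 12 libraries of heart LECs and 7 of 12 of diaphragm LECs, and did not exceed 0.636 TPM in heart BECs or 0.437 TPM in cardiomyocytes. Neither Agtr2 nor Mas1 passed the threshold between any populations compared, with adjusted p from 0.274 to 0.969 (limma).

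The 2 receptor-associated genes were the most abundant of the 9 in both LEC populations, while Ace exceeded Agtrap in heart BECs and both of them in cardiomyocytes. On average both were lowest in cardiomyocytes, where Agtr1a was highest. Agtrap was at 42.6 ± 17.3 TPM in diaphragm LECs (SD, n = 12), 40.9 ± 11.9 TPM in heart LECs, 32.8 ± 8.70 TPM in heart BECs and 13.7 ± 3.41 TPM in cardiomyocytes. The heart BEC range, 22.3 to 48.5 TPM, lay wholly above the cardiomyocyte range, 9.29 to 17.7 TPM, as 18.8% of all genes did not overlap between these populations. Cardiomyocytes differed from heart BECs by -1.20 ± 0.20 (log2 scale, SE, limma, adjusted p = 2.03e-06) and from heart LECs by -1.47 ± 0.20 (limma, adjusted p = 3.28e-08). The 3 endothelial populations were not separated (limma, adjusted p from 0.411 to 0.904).

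Atp6ap2 had the highest mean level of any member in the 3 endothelial populations. It was at 93.0 ± 13.5 TPM in diaphragm LECs (SD, n = 12), 89.1 ± 10.4 TPM in heart LECs, 63.9 ± 3.71 TPM in heart BECs and 42.5 ± 11.5 TPM in cardiomyocytes. The lowest heart LEC library, 73.8 TPM, and the lowest diaphragm LEC library, 70.3 TPM, both lay above the highest heart BEC library, 69.5 TPM, and 3.18% and 5.31% of all genes had populations that did not overlap in these comparisons. Heart LECs exceeded heart BECs by 0.48 ± 0.09 (log2 scale, SE, limma, adjusted p = 8.23e-05) and diaphragm LECs did so by 0.53 ± 0.09 (limma, adjusted p = 1.72e-05), in 12 of 12 and 11 of 11 mice. The LECs of the 2 organs were not separated (0.05, 95% interval -0.13 to 0.22, limma, adjusted p = 0.835). Lamp2, a lysosomal membrane protein, was the gene most like it over the 48 libraries (Pearson r = 0.936), with Dab2 (r = 0.928) and Gdi2 (r = 0.917) next. Cardiomyocytes were below heart BECs by -0.61 ± 0.10 as deposited (limma, adjusted p = 1.93e-06), but with quantile normalization the difference turned to 0.20 (limma, adjusted p = 0.0949) and that of Agtrap shrank to -0.39 (limma, adjusted p = 0.257). The median of all genes was itself shifted by -0.37 between cardiomyocytes and heart BECs and by -0.54 between cardiomyocytes and heart LECs, and quantile normalization moved these medians to -0.09 and -0.12. The share of called genes that were higher in cardiomyocytes went from 15.4% to 45.8% against heart BECs and from 11.5% to 45.9% against heart LECs. Measured against the shift of all genes, Atp6ap2 in cardiomyocytes was lower than in heart LECs under both scalings (-1.09 and -0.33) and Agtr1a was higher (1.98 and 2.63).

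The comparison of treatments asked whether the genes of the cascade changed in mice that received its effector. Within populations, 0 members passed the threshold in any of the 12 comparisons of treatments (limma). Over all genes the share called was 0.0261% for angII against ctrl in heart LECs, 0.0892% for angII against ctrl and 0.663% for angII+VEGFC against ctrl in cardiomyocytes, and 0% in the other 9 comparisons. At an unadjusted p under 0.05, members numbered 3 of 6 tested for angII against ctrl in heart LECs, where 10.9% of all genes did, and 2 of 6 for angII+VEGFC against angII in heart LECs (10.8%). Both counts include Agtr1a, which passed the filter on low values in heart LECs only through its angII libraries, so nothing is read from them. Members numbered 2 of 6 for angII+VEGFC against ctrl in cardiomyocytes (12.9%) and 0 or 1 in each other comparison.

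**Figure D3:**
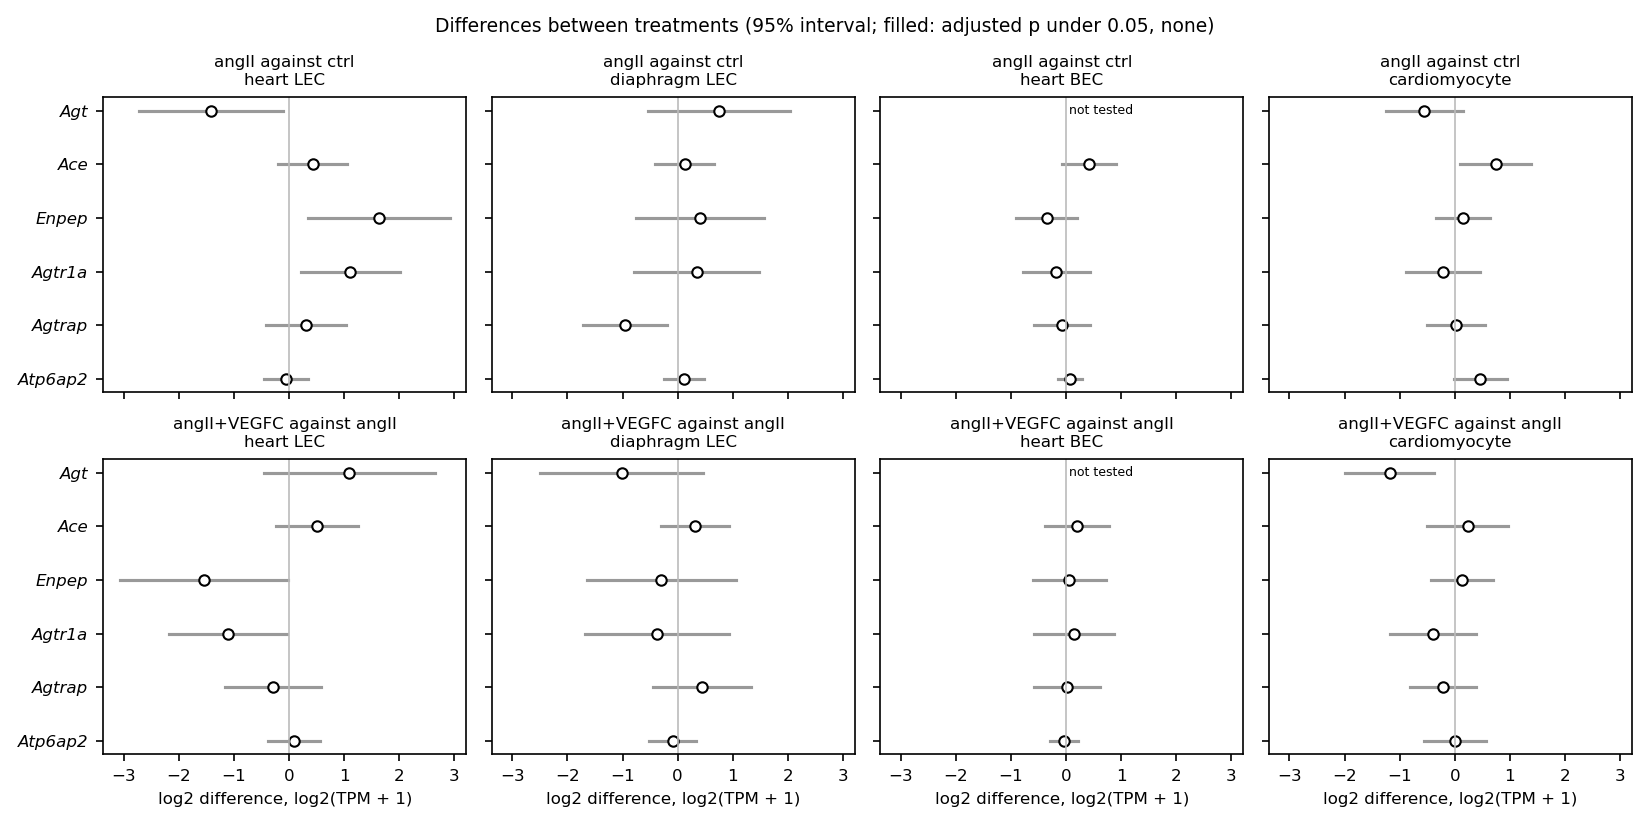
Each panel is 1 comparison of treatments in 1 population, angII against ctrl above and angII+VEGFC against angII below, with the difference in log2(TPM + 1) on the x axis and 95% intervals as bars; no symbol is filled since no adjusted p was under 0.05. For angII against ctrl, the intervals of Agt and Enpep in heart LECs, Agtrap in diaphragm LECs and Ace in cardiomyocytes exclude 0. For angII+VEGFC against angII, those of Enpep in heart LECs and Agt in cardiomyocytes do so. Agtr1a passed the filter on low values in heart LECs only through its angII libraries, and Agt in heart BECs did not pass the filter on low values.

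In heart LECs, Agtr1a was listed at 0 in all 4 ctrl and all 3 angII+VEGFC libraries and above 0 in all 5 angII libraries, at 2.41, 1.06, 3.26, 0.379 and 0.153 TPM. The angII libraries did not overlap with those of either other group, as 2.13% of all genes were higher in angII than in ctrl without overlap and 7.33% were lower in angII+VEGFC than in angII without overlap. Agtr1a entered the tested genes here only through its angII libraries. Neither these shares nor the tests below can therefore show a change, and nothing is read from them. The comparison did not pass the threshold for angII against ctrl (limma, adjusted p = 0.371) or for angII+VEGFC against angII (limma, adjusted p = 0.458). Without mouse 3, 12 or 15 the gene no longer reached 1 TPM in 3 libraries and could not be tested. The 2 highest values came from mice 3 and 12, whose heart LEC libraries also detected the most genes at that level, 25896 and 24428, while a ctrl library with 24086 such genes listed Agtr1a at 0. The summed level of 5 blood endothelial markers, all 5 above 0 in every library, was 2690 to 7020 TPM in the angII libraries against 1223 to 2559 TPM in ctrl and 1595 to 2015 TPM in angII+VEGFC. It was 4107 and 2690 TPM in the libraries of mice 3 and 12 and 7020 TPM in that of mouse 14, which had the lowest Agtr1a of the 5. With the count of detected genes added to the fit, the adjusted p for angII against ctrl was 0.782 (limma), and the part of the blood endothelial markers in the result was not tested. Over the 12 libraries, Agtr1a had Pearson r = 0.530 with the summed mural markers and -0.574 with the summed fibroblast markers. Neither passed the threshold (permutation, adjusted p = 0.318 for both). Without the 2 libraries farthest from the median, r was 0.200 and -0.496. Mural markers were highest in the library of mouse 3, at 904 TPM.

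**Figure D4:**
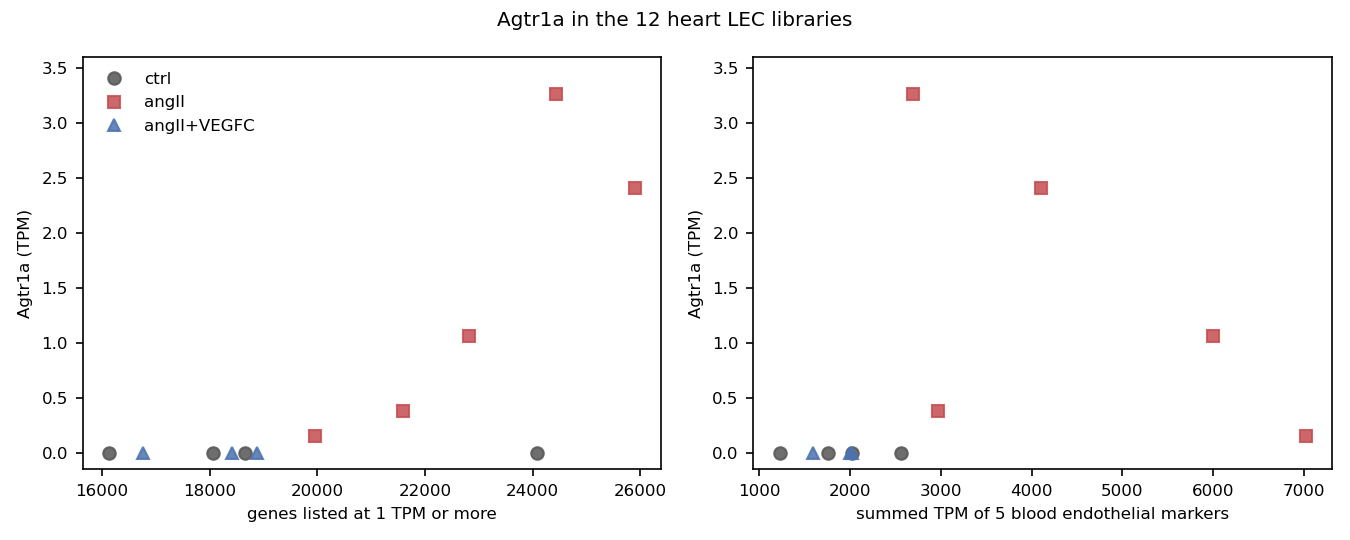
Agtr1a in TPM (y axis) of the 12 heart LEC libraries is plotted against the genes listed at or above 1 TPM (left) and against the summed TPM of the blood endothelial markers (right), with 1 symbol per library. The 5 angII libraries lie above 0 and the 7 others at 0, including a ctrl library among those with the most genes, and all angII libraries lie to the right of the others in the right panel.

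The other differences in heart LECs rested in part on other libraries. Enpep was at 4.33, 1.96, 0.0604 and 0 TPM in ctrl, 8.51, 5.27, 2.31, 3.97 and 2.92 TPM in angII, and 3.08, 0.104 and 4.00 TPM in angII+VEGFC, so that the groups overlapped. The highest value, of mouse 3, came from the heart LEC library with the highest summed mural markers, 904 TPM. The part of mural and blood endothelial markers in the Enpep values was not tested. The difference in Enpep between angII and ctrl was 1.63 ± 0.61 (log2 scale, SE, limma, adjusted p = 0.362), 1.07 in batch 1 and 1.70 in batch 2, and it was 0.89 with the number of genes in the fit. Agt had the opposite sign, at 1.40, 0, 5.08, 8.30 and 1.24 TPM in angII against the ctrl values above, with a difference of -1.41 ± 0.62 (limma, adjusted p = 0.425), -1.48 in batch 1 and -0.99 in batch 2, and it was -0.86 without mouse 15. In heart BECs, which come from the same hearts, Agtr1a was at 0.718, 1.29, 2.04 and 2.27 TPM in ctrl and at 1.51, 0.784, 1.89, 1.20 and 1.498 TPM in angII. This was a difference of -0.18 with an interval of -0.79 to 0.42 (limma, adjusted p = 0.981), 0.20 within batch 1 and -0.47 within batch 2. In diaphragm LECs Agtr1a was at 1.05, 0.0958, 1.47 and 1.07 TPM in ctrl and 1.96, 0, 4.47, 1.24 and 1.24 TPM in angII. This was a difference of 0.35 with an interval of -0.79 to 1.48 (limma, adjusted p = 0.749), 0.56 within batch 1 and -0.01 within batch 2. It turned negative with quantile normalization (-0.41). The difference of the angII change between heart LECs and heart BECs had an adjusted p of 0.681 for Agtr1a and 0.644 for Enpep (limma), so that a change particular to heart LECs was not shown. No member passed the threshold in the 6 such comparisons between endothelial populations (limma, smallest adjusted p = 0.418), where the share of all genes called was 0.00611% for the angII change of heart against diaphragm LECs and 0% in the others. Of 8 members tested in each of the 6, 2 had an unadjusted p under 0.05 for the angII change of heart LECs against heart BECs (7.19% of all genes). They were Enpep and Agtr1a. As Agtr1a was listed at 0 in all ctrl heart LEC libraries, nothing is read from this count. There were 2 for heart against diaphragm LECs (9.70% of all genes), and 0 in the remaining 4.

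In cardiomyocytes the treatment differences of Ace and Agt had opposite signs, and neither passed the threshold. Ace was at 33.3, 27.0, 28.2 and 29.7 TPM in ctrl, 56.8, 45.1, 49.0, 74.9 and 39.5 TPM in angII, and 92.3, 75.1 and 25.3 TPM in angII+VEGFC. All 5 angII libraries lay above all 4 ctrl libraries, as 5.10% of all genes did, and in angII+VEGFC the library of mouse 8 lay below every ctrl library. The difference between angII and ctrl was 0.74 ± 0.30 (log2 scale, SE, limma, adjusted p = 0.421), and that between angII+VEGFC and ctrl 0.98 ± 0.34 (limma, adjusted p = 0.227). Without mouse 8 the latter was 1.47 (limma, adjusted p = 0.00318), and without mouse 2 it was 0.55 (limma, adjusted p = 0.633). With the count of detected genes in the fit, the former was 0.91 (limma, adjusted p = 0.0236) and the latter 1.42 (limma, adjusted p = 0.00556). The library of mouse 8 stood apart with 19306 such genes, against 13020 to 15816 in the other 11. The summed level of 8 fibroblast markers was 2497 to 3594 TPM in ctrl, 4068 to 5710 TPM in angII, and 6308, 6657 and 3441 TPM in the angII+VEGFC libraries of mice 2, 6 and 8. That of 6 leukocyte markers was 405 to 540 TPM in ctrl and 565 to 1231 TPM in angII. In angII+VEGFC the leukocyte markers were at 688, 1305 and 618 TPM in mice 2, 6 and 8, so that mouse 8, with the lowest Ace, lay above every ctrl library in them. Their part in the Ace result was not tested. Mean Ace was also lowest in ctrl and highest in angII+VEGFC in the 3 endothelial populations. In ctrl, angII and angII+VEGFC it was 16.0, 22.4 and 26.8 TPM in heart LECs and 27.8, 36.3 and 40.6 TPM in heart BECs. In diaphragm LECs it was 21.3, 22.3 and 28.4 TPM. Between angII+VEGFC and ctrl, Ace differed by 0.94 in heart LECs (limma, adjusted p = 0.915) and 0.61 in heart BECs (limma, adjusted p = 0.878). Within the 12 cardiomyocyte libraries Loxl3 (Pearson r = 0.971), Mrc2 (r = 0.963) and Hmgcs1 (r = 0.962) were the genes most like Ace.

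Agt in cardiomyocytes was at 5.84, 8.18, 6.81 and 5.82 TPM in ctrl, 3.92, 3.55, 1.83, 3.17 and 10.1 TPM in angII, and 0.673, 2.69 and 1.40 TPM in angII+VEGFC. All 3 angII+VEGFC libraries lay below all 4 ctrl libraries, as 4.78% of all genes did, and the angII group overlapped with ctrl through the library of mouse 14, which also had the highest summed level of 5 cardiomyocyte markers, 15011 TPM. The difference between angII+VEGFC and ctrl was -1.73 ± 0.38 (log2 scale, SE, limma, adjusted p = 0.0519). It passed the threshold with a pseudocount of 0.1 TPM (limma, adjusted p = 0.0441), with quantile normalization (limma, adjusted p = 0.0271), with the count of detected genes in the fit (limma, adjusted p = 0.0409) and without mouse 8 (limma, adjusted p = 0.0361). Leaving out any of the 6 other mice of these groups gave no call (limma, adjusted p up to 0.290). That between angII+VEGFC and angII was -1.18 ± 0.38 (limma, adjusted p = 1.00). These markers ran from 7287 to 11073 TPM in ctrl and from 4929 to 9026 TPM in angII+VEGFC, and their part in the Agt result was not tested. Agtr1a differed by -0.20 between angII and ctrl in cardiomyocytes, with an interval of -0.88 to 0.47 (limma, adjusted p = 0.897).

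**Figure D5:**
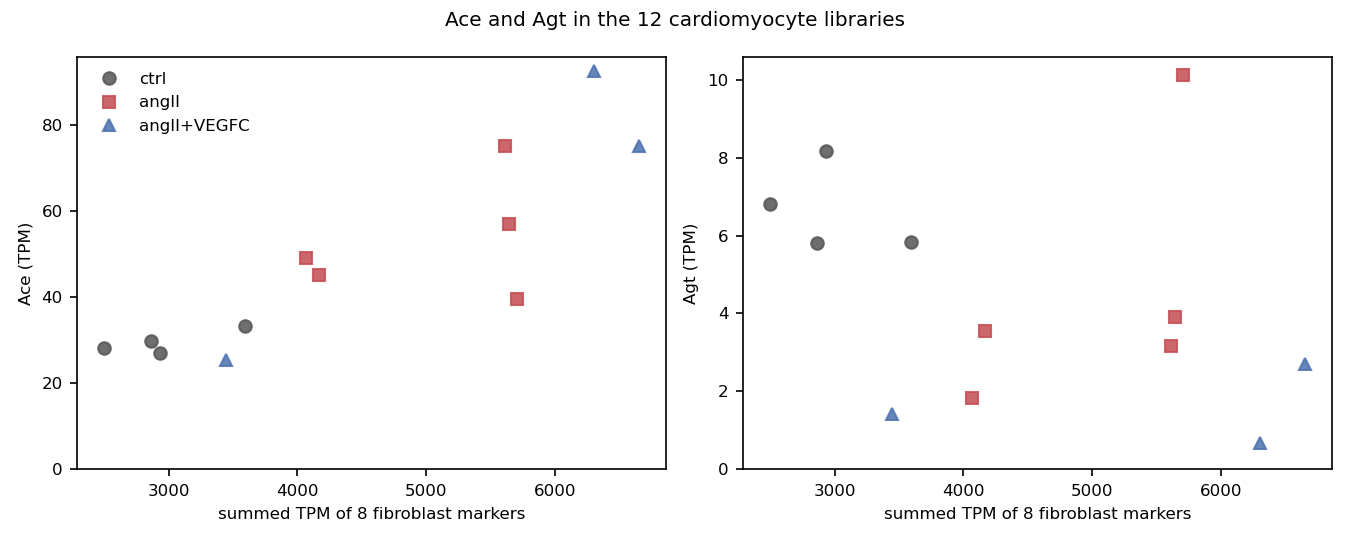
Ace (left) and Agt (right) in TPM are plotted for the 12 cardiomyocyte libraries against the summed TPM of 8 fibroblast markers, with 1 symbol per library. Ctrl libraries lie at 27.0 to 33.3 TPM of Ace and 2497 to 3594 TPM of the markers, and 1 angII+VEGFC library (mouse 8, 25.3 TPM of Ace and 3441 TPM of the markers) lies beside them.

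Agtrap was the remaining member with an unadjusted p under 0.05 for angII against ctrl, in diaphragm LECs, at 69.2, 40.4, 61.0 and 61.8 TPM in ctrl and 47.0, 23.8, 12.1, 51.9 and 27.8 TPM in angII. The groups overlapped, and the difference was -0.96 ± 0.36 (log2 scale, SE, limma, adjusted p = 0.299), -1.33 in batch 1 and -0.49 in batch 2. Atp6ap2 over the ctrl and angII libraries ran from 59.9 to 67.3 TPM in heart BECs and from 70.3 to 124 TPM in diaphragm LECs. In cardiomyocytes it was at 33.5 ± 6.86 TPM in ctrl (SD, n = 4) and 45.9 ± 8.67 TPM in angII (n = 5), a difference of 0.46 on the log2 scale (limma, adjusted p = 0.538).

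Other genes of the cascade gave the members a context. Of 16 further peptidases and renin, renin itself (Ren1) did not exceed 0.363 TPM in any library, and 13 were tested in the endothelial populations. In heart LECs against heart BECs, where 17.6% of all genes were called (2929 higher and 2831 lower), 2 of the 13 were higher and 2 lower, with a median difference of -0.06 against 0.15 for all genes. The higher ones were Anpep (1.99, limma, adjusted p = 3.39e-09), the aminopeptidase N that trims angiotensin III, and Ctsd (0.75, limma, adjusted p = 2.75e-07), a lysosomal aspartyl protease. Rnpep, aminopeptidase B, was among the lower ones (-0.80, limma, adjusted p = 7.83e-08). Anpep was at 7.66 to 34.2 TPM in heart LECs and 1.64 to 6.84 TPM in heart BECs. Mast cell chymases, which can also form angII, were uneven, as Cma1 reached 36.9 TPM in 1 diaphragm LEC library while its median there was 0.

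Of 12 genes that carry or dampen signals of the type 1 receptor, 1 was higher and 7 were lower in heart LECs than in heart BECs (17.6% of all genes called), with a median difference of -0.78 against 0.15 for all genes. The lower ones included the phospholipase C isoforms Plcb1 (-2.57, limma, adjusted p = 4.13e-11) and Plcb4 (-1.62, limma, adjusted p = 1.22e-13) and the G protein subunit Gna11 (-0.97, limma, adjusted p = 1.56e-06). The higher one was Arrb1 (1.21, limma, adjusted p = 3.54e-05), a beta-arrestin that uncouples and internalizes receptors. Diaphragm LECs showed 2 higher and 7 lower against heart BECs (16.6% of all genes called), with a median of -0.84 against 0.03 for all genes. Rgs4 and Rgs5, inhibitors of G protein signalling, were lower in heart LECs as well (-2.33 and -1.91, limma, adjusted p = 4.62e-06 and 1.82e-05), and Rgs5 is also one of the mural cell markers. Of 6 other receptors and partners, 0 were higher and 3 lower in heart LECs against heart BECs, among them the bradykinin receptor Bdkrb2 (-1.75, limma, adjusted p = 4.09e-07). Of 10 genes known to respond to the receptor, 2 were higher and 3 lower, among them Rcan1 (1.07, limma, adjusted p = 4.41e-06), a calcineurin target that was at 515 to 1017 TPM in heart LECs and 172 to 541 TPM in heart BECs.

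None of these 44 genes passed the threshold between treatments in any population (limma). At an unadjusted p under 0.05 were 10 of 144 pairs of a gene and a comparison among the peptidases and 8 of 54 among the other receptors and partners. There were 14 of 144 among the signalling genes and 19 of 120 among the response genes. Over all genes this share ran from 1.32% to 15.3% in the 12 comparisons. The smallest adjusted p was 0.0514 (limma), for Ccn2, a growth factor of fibrosis, in cardiomyocytes of angII+VEGFC against ctrl (2.04 on the log2 scale), a gene named here after its values were seen.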

How the data were processed

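RNA was sequenced from low-input Smart-Seq libraries made with Nextera XT, a kit that does not keep strand. The authors aligned reads with STAR 2.5.3a to GRCm38 and quantified them with Salmon 0.12.0 and the Ensembl annotation, and deposited TPM values, which were used as deposited for 48 libraries. By the study's methods, libraries far from the rest in a principal component analysis were removed from the analysis. Library totals ran from 997657 to 999929 TPM, and read depth is unknown, since TPM keeps no counts.

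Values were taken as log2(TPM + 1), and genes that reached 1 TPM in no fewer than 3 of the fitted libraries were tested with limma 3.58.1 in R 4.3.3 (moderated linear model with a mean-variance trend, Benjamini-Hochberg adjustment over all genes tested, threshold 0.05). A fold on this scale understates the change of genes with low values. Treatments were compared within each population with age as covariate, and with sequencing batch for the endothelial populations. Endothelial populations were compared over 36 libraries with age and batch, and cardiomyocytes over 48 libraries with age, as their batch 3 held no other population. The labels give the same mouse number to libraries of the same animal, and the mouse as a block was an alternative. Deviations from the group means correlated on average by 0.0360 within a mouse (69 pairs, -0.196 to 0.249) and by -0.0101 between mice (231 pairs). No libraries were duplicates (highest correlation 0.986).

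Members and gene lists were chosen with earlier results of these data known. All members were described, and genes of the fixed lists were named from those that passed the threshold; some are not reported here. Genes most like a member were the 3 with the highest Pearson r among 33300 genes. Relations with marker sums used 100000 permutations, two-sided, adjusted over 24 relations, and none passed (smallest adjusted p = 0.167). Gene positions and coding sequences came from GRCm38 with the GENCODE M21 annotation. The limma code was tested on simulated data.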

Additional observations from a re-analysis of the deposited data

Results flagged for a closer look

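In 67 groups of 4 or 5 libraries of 1 population and treatment, 13 held a library far from the others by Dixon's criterion. Chance gives about 1 in 20 for normally distributed values, which TPM values near 0 are not. Where all others of a group are at 0, any value above 0 is flagged, so the 13 are not read against that rate. For Agt these were the ctrl heart LECs of mouse 9 (10.6 TPM, others 4.91 to 5.78) and the angII cardiomyocytes of mouse 14 (10.1 TPM, others 1.83 to 3.92). For Agtr1b they were the ctrl heart LECs of mouse 11 (1.05 TPM), the angII heart BECs of mouse 18 (0.181 TPM) and the angII diaphragm LECs of mouse 18 (0.852 TPM), with the others of each group at 0. For Agtr2 they were the ctrl diaphragm LECs of mouse 9 (1.43 TPM) and the angII cardiomyocytes of mouse 12 (0.0447 TPM), again with the others at 0. For Mas1 they were the ctrl heart LECs of mouse 1 (1.91 TPM, others at 0), the ctrl diaphragm LECs of mouse 11 (0.476 TPM, others at or under 0.0618), the ctrl cardiomyocytes of mouse 11 (0.437 TPM, others at or under 0.0343) and the angII cardiomyocytes of mouse 14 (0 TPM, others up to 0.263). For Enpep it was the ctrl diaphragm LECs of mouse 9 (3.51 TPM, others 0.563 to 0.850), a library that also had the highest summed mural markers of its population, 705 TPM. For Atp6ap2 it was the angII diaphragm LECs of mouse 4 (124 TPM, others 82.6 to 92.8), the 1 mouse without heart libraries.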

How the results depend on the processing

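Counts of members called kept within 1.5 times of the reported count in 368 of 382 alternatives. These cover comparisons of populations, of treatments, and of treatment changes between populations. The reported count was 0 in every comparison of the last 2 kinds, where 0 again was scored as kept. A count can also stay while the genes change, as for cardiomyocytes against heart BECs with quantile normalization. The tally therefore says little about stability. With ctrl libraries alone, the count fell from 5 to 3 for heart LECs against heart BECs and from 3 to 1 for diaphragm LECs against heart BECs, where fewer libraries entered. For diaphragm against heart LECs it rose from 0 to 1 without covariates, with quantile normalization and with the mouse block, and leaving out 1 mouse gave 0 to 1. For cardiomyocytes it rose from 0 to 1 with the number of genes in the fit (angII against ctrl), and for angII+VEGFC against ctrl to 2 with that covariate and to 1 with a pseudocount of 0.1 or quantile normalization, while leaving out 1 mouse gave 0 to 2 (2 without mouse 8). The mouse block changed 2 calls, Ace of diaphragm LECs against heart BECs (-0.47, limma, adjusted p = 0.07) and Agt of diaphragm against heart LECs (-1.05, limma, adjusted p = 0.0255), and no other. Ace of heart LECs against heart BECs was not called with ctrl libraries alone (limma, adjusted p = 0.247), nor was Atp6ap2 (limma, adjusted p = 0.062), while Agt of diaphragm LECs against heart BECs was called without mouse 15 (limma, adjusted p = 0.0364), and Ace of cardiomyocytes against heart BECs was called without mouse 1 (limma, adjusted p = 0.0246), without mouse 8 (limma, adjusted p = 0.0115) and with quantile normalization (1.19, limma, adjusted p = 4.65e-07).

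Signs turned for 1 called difference, Atp6ap2 of cardiomyocytes against heart BECs, from -0.61 to 0.20 with quantile normalization, and for differences that were not called. Agtr1a for angII against ctrl was -0.41 with quantile normalization and -0.33 with the number of genes in diaphragm LECs, and -0.34 to 0.019 without 1 mouse in cardiomyocytes. For diaphragm against heart LECs, Enpep was 0.073 and Atp6ap2 -0.029 with ctrl libraries alone, Agtrap was -0.14 with the number of genes, and leaving out 1 mouse gave -0.11 to 0.17 for Agtrap and -0.0049 to 0.10 for Atp6ap2. Agt of cardiomyocytes against heart LECs was 0.0075 with a pseudocount of 0.1, 0.67 with quantile normalization and 0.052 with ctrl libraries, and -0.32 to 0.12 without 1 mouse. The cause was not tested. TPM without counts limits what can be said of Agtr1b, Agtr2 and Mas1, whose 0 values may be missed transcripts.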
